A study of Mus musculus with 2 samples.

Results

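RNA levels of 10 transcription factor genes that T cells use to read calcium and T cell receptor signals were compared between Th1 cells of both Chi3l1 genotypes. The genes are the NFAT factors Nfatc1, Nfatc2 and Nfatc3, the orphan nuclear receptors Nr4a1, Nr4a2 and Nr4a3, the zinc finger factors Egr1, Egr2 and Egr3, and the HMG-box factor Tox. They were chosen by symbol and function, with earlier results of these data known. All 10 were found among the 24421 genes of the deposited tables. Th1 cells are helper T cells that produce IFNγ. Here naïve CD4 T cells from C57BL/6J mice, either Chi3l1+/+ (WT Th1) or Chi3l1-/- (Chi3l1 KO Th1), had been stimulated on plates coated with anti-CD3 and anti-CD28 antibodies and skewed in culture with IL-12, IL-2 and anti-IL-4 antibody. The study used mice a few weeks old, and its culture protocol allows more than 1 duration without saying which applied to the sequenced cells. Chi3l1, or chitinase 3-like 1, is a secreted chitinase-like protein without enzyme activity, and the KO mice lack it in all tissues. There was 1 library of each genotype (n = 1), so no difference below has a replicate check and no p-value is given.

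The targeted gene went against the labels. Chi3l1, listed as Chil1, had a log2 value of 0.94 (1 read) in the library labelled WT Th1 and 6.66 (103 reads) in the library labelled Chi3l1 KO Th1, a difference of 5.71 whose counting interval lay above 4.17. The values are per gene and do not show which exons those reads cover. The libraries are therefore called WT-labelled and KO-labelled, and every direction below rests on those labels. All values are deposited log2 values of a normalized read count plus 1, and a difference is the KO-labelled value minus the WT-labelled value. The rebuilt reads summed to 70547462 in the WT-labelled library and 62888076 in the KO-labelled library, and normalization left the WT-labelled sum larger. Scaling both libraries to equal totals adds 0.17 to the log2 difference of well expressed genes, so differences between -0.17 and 0 turn positive under it. Values at equal totals, or after removal of the trend of differences with GC content (described below), are given where they alter a direction or a count. In bulk RNA, fewer cells of a type and less RNA per cell cannot be told apart.

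Engagement of the T cell receptor raises cytosolic calcium, which activates the phosphatase calcineurin. Calcineurin dephosphorylates NFAT proteins, and these enter the nucleus and switch on cytokine and receptor genes. NR4A and EGR genes are early response genes that are silent or low in resting T cells and are induced within a short time of receptor engagement. TOX is induced downstream of calcineurin and NFAT and is best known from chronically stimulated T cells. The comparison asks whether RNA of these genes looked alike in both libraries, with the induced genes among them as readouts of recent stimulation. Because NFAT proteins are switched on by dephosphorylation, RNA levels of NFAT genes do not measure NFAT activity.

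All 10 genes were lower in the KO-labelled library as deposited, and 7 of the 10 were lower when the libraries were scaled to equal totals. The median difference was -0.49 (-0.32 at equal totals and -0.27 with the GC trend removed), with a range from -0.87 for Tox to -0.04 for Nr4a2. None was past 2-fold, where 0.809% of the 6059 genes whose mean log2 value reached 10 were past it in either direction, as were 16.5% of the 15541 genes that reached 1 in either library. All 10 members are among those 6059 genes. In that range of level, 54.3% of genes were lower by any amount, and the median difference was -0.04. Nfatc1, Egr1, Egr3 and Tox, 4 of the 10 members, were lower by at least 1.5-fold, compared to 5.69% of genes in that range. Without Nfatc1 they were 3 after quantile normalization, when scaled to Actb and at equal totals, and with the GC trend removed they were 2, Egr3 and Tox. No member was higher by 1.5-fold, compared to 2.53% of those genes. Since the members were chosen with results of these data known, these shares describe the list and do not test it. For 9 of the 10 genes, the 95% interval of the ratio from read counts alone (exact Clopper-Pearson) lay below 0 as deposited. At equal totals 7 lay below 0, those of Nfatc3 and Nr4a2 lay above it and that of Nr4a3 spanned it. Such intervals hold counting error only and not the variation between mice or cultures.

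**Figure D1:**
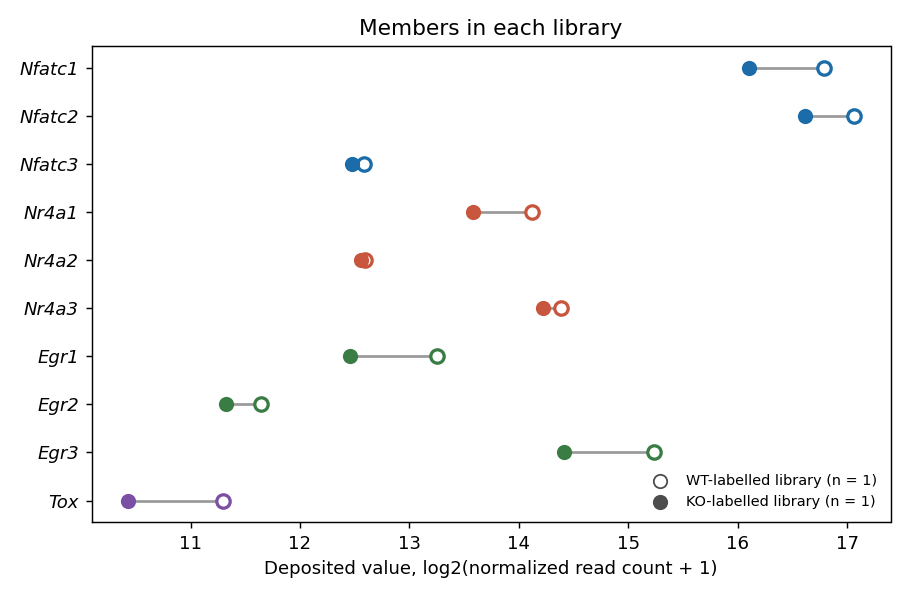
Deposited log2 values (horizontal axis, log2 of normalized read count plus 1) of the 10 genes in the WT-labelled library (open circles) and the KO-labelled library (filled circles), n = 1 each and therefore without error bars. The KO-labelled circle lies to the left for all 10 genes as deposited (7 of 10 when scaled to equal totals), with the widest gap for Tox and nearly touching circles for Nr4a2.

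**Figure D2:**
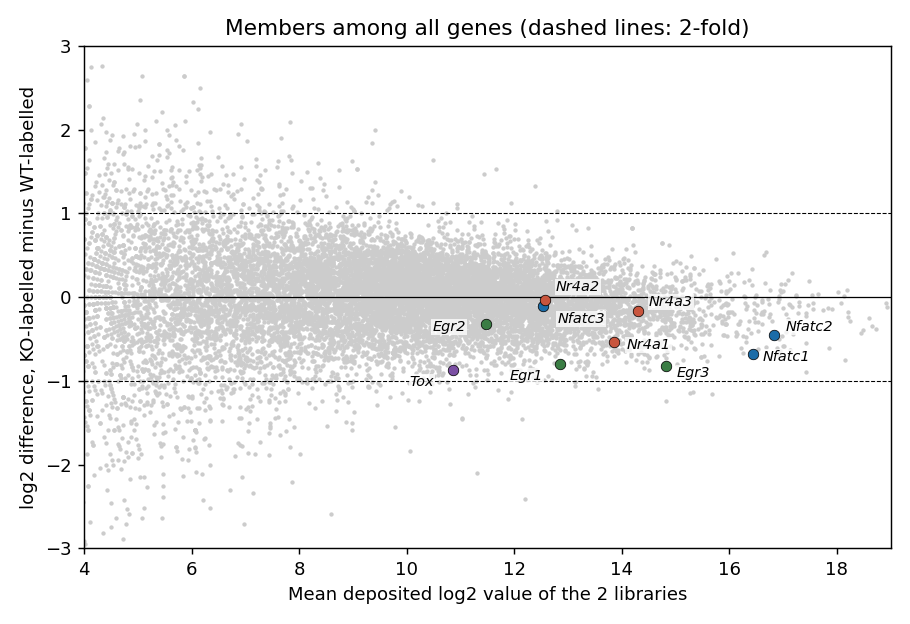
The log2 difference, KO-labelled minus WT-labelled (vertical axis), against the mean log2 value of both libraries (horizontal axis), for all genes kept (grey) and the 10 members (coloured by family), n = 1 per genotype. The members lie at mean values from 10.9 to 16.8 and between the 2-fold line and 0 as deposited, and the axes leave out genes of low level or larger difference.

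Nfatc1 and Nfatc2, which encode the main NFAT proteins of peripheral T cells (NFATc1 and NFATc2), had the highest levels per transcript length of the 10 genes. Nfatc1 had a log2 value of 16.79 in the WT-labelled library and 16.11 in the KO-labelled library, or 113237 and 70580.4 normalized reads. The KO-labelled library thus held 62.3% of the WT-labelled count, a difference of -0.68 (counting interval from -0.70 to -0.67). Nfatc2, on chromosome 2, had 17.07 and 16.62, or 137111 and 100371 normalized reads. Its difference of -0.45 (counting interval from -0.46 to -0.44) corresponds to 73.2%. Nfatc3, which encodes the NFAT protein also abundant in thymocytes, was close in both libraries, with 12.59 and 12.48. Its difference of -0.11 turned to 0.06 when the libraries were scaled to equal totals and to 0.00498 when they were scaled to Actb. An exon of Nfatc3 overlaps one of Esrp2 on the other strand, and whether counting used strand is not given in the sources used here.

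The remaining NFAT genes did not share the lower level. Nfat5, the calcium-independent member that responds to osmotic stress, had 12.70 and 12.89, a difference of 0.19 that was 0 once the GC trend was removed. Nfatc4, which is chiefly a gene of other tissues, had only 5 and 12 reads, and its counting interval from -0.35 to 3.12 spans 0. Per kilobase of the longest annotated transcript, Nfatc1 had 23606 normalized reads in the WT-labelled library and 14713 in the KO-labelled library, and Nfatc2 had 20081 and 14699.9. Nfatc3 had 1028 and 952. Nfatc1 thus stood above Nfatc2 in the WT-labelled library, whereas both stood at nearly the same level per length in the KO-labelled library.

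The NR4A genes encode DNA-binding nuclear receptors without a known natural ligand, and Nr4a1 (Nur77) is widely used as a reporter of receptor signal strength. The stretch before their start sites and before one start site of Egr2 is shown because these early genes are induced through short promoter elements. RefSeq windows (GRCm38.p6, the same assembly as mm10) of 250 bases upstream of the start were held for 6 of the 10 members, with Nfatc1, Egr1, Egr3 and Tox not among them. Capitals mark the CRE core TGACG (or CGTCA on the other strand), which is bound by CREB-family factors, the EGR site GCGNGGGCG and the serum response element (CArG box). The Nr4a1 window, chr15:101266596-101266845 on the plus strand, lies inside the span of longer annotated transcripts and outside their exons. The Nr4a2 window is chr2:57124004-57124253 on the minus strand. For Nr4a3, only the 98 bases that no annotated exon covers are shown, chr4:48045055-48045152 on the plus strand. The Egr2 window, chr10:67537619-67537868 on the plus strand, likewise lies inside the span of longer transcripts.
Nr4a1: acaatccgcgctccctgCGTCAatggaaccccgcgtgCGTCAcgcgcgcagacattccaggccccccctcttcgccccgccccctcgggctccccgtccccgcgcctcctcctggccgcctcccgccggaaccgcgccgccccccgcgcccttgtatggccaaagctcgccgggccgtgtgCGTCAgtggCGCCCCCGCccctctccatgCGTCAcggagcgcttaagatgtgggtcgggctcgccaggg
Nr4a2: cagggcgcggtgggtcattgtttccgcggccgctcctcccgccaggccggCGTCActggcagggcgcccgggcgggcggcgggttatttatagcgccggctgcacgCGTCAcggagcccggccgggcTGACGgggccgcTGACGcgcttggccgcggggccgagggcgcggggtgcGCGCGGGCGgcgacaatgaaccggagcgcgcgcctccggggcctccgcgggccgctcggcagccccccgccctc
Nr4a3: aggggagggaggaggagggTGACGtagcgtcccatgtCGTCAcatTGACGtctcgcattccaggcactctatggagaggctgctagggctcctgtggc
Egr2: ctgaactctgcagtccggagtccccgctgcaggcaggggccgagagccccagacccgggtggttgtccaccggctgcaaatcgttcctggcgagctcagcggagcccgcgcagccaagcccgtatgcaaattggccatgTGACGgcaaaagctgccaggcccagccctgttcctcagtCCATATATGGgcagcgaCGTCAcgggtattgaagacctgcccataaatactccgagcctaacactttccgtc

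Each of the NR4A windows held 4 CRE cores over both strands, of which 3 are in the stretch shown for Nr4a3. Of 32536 distinct windows of the same length, 17.9% held at least 1, 3.92% at least 2 and 0.138% at least 4. The full palindrome TGACGTCA, found in 1.56% of windows, was in none of the windows of these 6 genes. The EGR site was in the Nr4a1 and Nr4a2 windows, and 4.74% of windows held it. The Egr2 window held 2 CRE cores and a serum response element 72 bases before the start, and 1.48% of windows held that element. The window of another Egr2 start further upstream, at 67537316 to 67537565, held a serum response element too. The NR4A site AAAGGTCA, held by 1.35% of windows, was in none of those of the 6 genes. The NFAT core GGAAA, too short to single out a window, was in 55.7%. TATAAA, held by 12.3%, was in the Nr4a2 window and in one of those of Nfatc2. These are matches of letters and not evidence of binding.

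Although their windows shared these cores, the NR4A genes differed in size of difference as deposited. Nr4a1 had a log2 value of 14.12 in the WT-labelled library and 13.58 in the KO-labelled library, from 17779 and 12279 normalized reads. Its difference was -0.53 (counting interval from -0.57 to -0.50), or 69.1% of the WT-labelled count. With the GC trend removed it was -0.27, close to the -0.23 of Nr4a3. Nr4a3, which is induced by receptor signals much as Nr4a1 is, had 14.39 and 14.22. Its difference of -0.17 became 0.00127 when the libraries were scaled to equal totals. Nr4a2 had 12.60 and 12.56, from 6186 and 6017 normalized reads. Its difference of -0.04 had a counting interval from -0.09 to 0.01 and turned to 0.13 at equal totals, 0.08 when scaled to Actb and 0.03 after quantile normalization. Together the NR4A genes held 82.3% of their WT-labelled normalized reads in the KO-labelled library, with Nr4a1 as the only one of the 3 that stayed lower under every scaling tried.

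Per length, the NR4A genes kept one order in both libraries. Nr4a1 had 6964 normalized reads per kilobase in the WT-labelled library and 4809.6 in the KO-labelled library. Nr4a3 had 3743 and 3334, and Nr4a2 had 1734 and 1686. As deposited, the distance between Nr4a1 and Nr4a3 was smaller in the KO-labelled library.

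The EGR genes encode zinc finger factors of the immediate early response, of which EGR2 and EGR3 are known as brakes on T cell activation. Egr3, on chr14:70077203-70082614, was the most abundant, with log2 values of 15.24 and 14.41. These correspond to 38564 normalized reads in the WT-labelled library and 21813.5 in the KO-labelled library. Its difference was -0.82 (counting interval from -0.85 to -0.80), which leaves 56.6% of the WT-labelled count. Egr1, the most widely used marker of ERK-driven early transcription, had 13.26 and 12.46. Its difference of -0.80 (counting interval from -0.85 to -0.75) was close to that of Egr3. Egr2 differed less, with 11.64 and 11.32 and a difference of -0.32 (counting interval from -0.39 to -0.25) that was -0.15 at equal totals. All 3 stayed lower under every scaling tried. The summed normalized reads of the 3 genes in the KO-labelled library were 58.2% of those in the WT-labelled library, compared to 68.9% for the NFAT members.

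Egr4 and Nab2 were lower beside the EGR members, and Nab1 was not. Egr4, the remaining family gene, had 232 reads in the WT-labelled library and 81 reads in the KO-labelled library. Its difference of -1.51 (counting interval from -1.90 to -1.15) was past 2-fold, as were 10.9% of genes with a mean log2 value from 6 to 8. It was at -1.06 with the GC trend removed. Nab2, a corepressor that binds EGR proteins and is itself induced by them, had 14.14 and 13.50, a difference of -0.64. With the GC trend removed, Nab2 was at -0.19. The related corepressor Nab1 had 9.87 and 10.09, a difference of 0.22. Per length, Egr3 had 9788 and 5536 normalized reads per kilobase, Egr1 had 2180 and 1253, and Egr2 had 1076 and 862.

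Tox, on chr4:6686353-6991557, had the lowest level per length of the members and the largest difference. Its log2 value was 11.30 in the WT-labelled library and 10.43 in the KO-labelled library, from 2517 and 1377 normalized reads. The difference of -0.87 (counting interval from -0.97 to -0.78) leaves 54.7% of the WT-labelled count. Per kilobase, Tox had 635 normalized reads in the WT-labelled library and 348 in the KO-labelled library. A non-coding antisense transcript overlaps an exon of Tox and has no row of its own in the tables. Tox2, its close relative in helper T cells, was lower by more, with 153 and 62 reads and a difference of -1.29 (counting interval from -1.76 to -0.87) that was -1.08 with the GC trend removed. Its mean log2 value lies from 6 to 8, where 10.9% of genes were past 2-fold. From 10 to 12, the range of Tox, 1.03% were. Tox4, a broadly expressed relative, had 12.39 and 12.28, a difference of -0.11 that turned to 0.06 at equal totals. Tox3 had 4 reads and 1 read, too few for a direction, with an interval from -7.62 to 1.33.

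Levels and base composition moved with the differences. Of genes with a mean log2 value from 14 to 18, where Nfatc1, Nfatc2, Nr4a3 and Egr3 lie, 73.0% were lower in the KO-labelled library and the median difference was -0.16. From 12 to 14, where Nfatc3, Nr4a1, Nr4a2 and Egr1 lie, 59.9% were lower. From 10 to 12, the range of Egr2 and Tox, 47.2% were lower. Across 8848 genes that reached a log2 value of 8 in each library, the median difference went from 0.23 in the lowest of 20 bins of transcript GC content to -0.45 in the highest. The part of level and GC content in the members' differences was not tested beyond subtracting the GC trend.

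Subtracting the median of each gene's GC bin lowered some members and raised others. Egr1, with 57.3% GC, went from -0.80 to -0.54, Nr4a1, with 57.0%, from -0.53 to -0.27, and Nfatc1, with 53.7%, from -0.68 to -0.55. Nfatc2 went from -0.45 to -0.27, and Egr2 from -0.32 to -0.27. Egr3, with 51.3%, was nearly unmoved at -0.77. Tox, with 45.1%, went from -0.87 to -1.02, which is past 2-fold. The less GC-rich Nr4a2, Nr4a3 and Nfatc3 also went further below 0, to -0.12, -0.23 and -0.23. All 10 members were then lower, where 51.6% of 6036 genes in their range of level were lower. Only Egr3 and Tox, 2 of the 10, were then lower by at least 1.5-fold, compared to 2.65% of those genes.

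**Figure D3:**
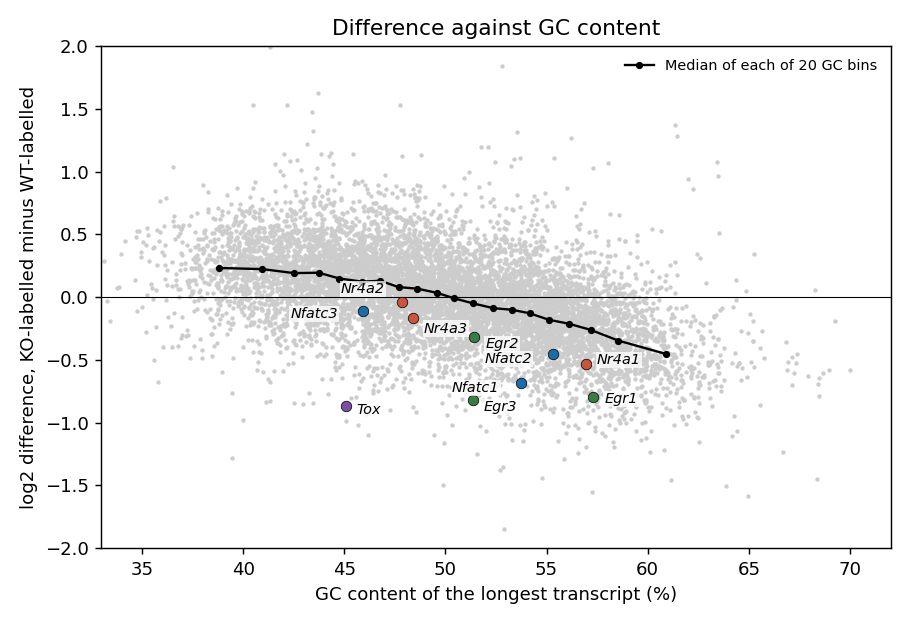
The log2 difference, KO-labelled minus WT-labelled (vertical axis), against GC content of the longest transcript in percent (horizontal axis), for genes that reached a log2 value of 8 in each library (grey), n = 1 per genotype. The line joins the medians of 20 GC bins, from 0.23 to -0.45, and all 10 members lie below it, with Tox and Egr3 farthest below.

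**Figure D4:**
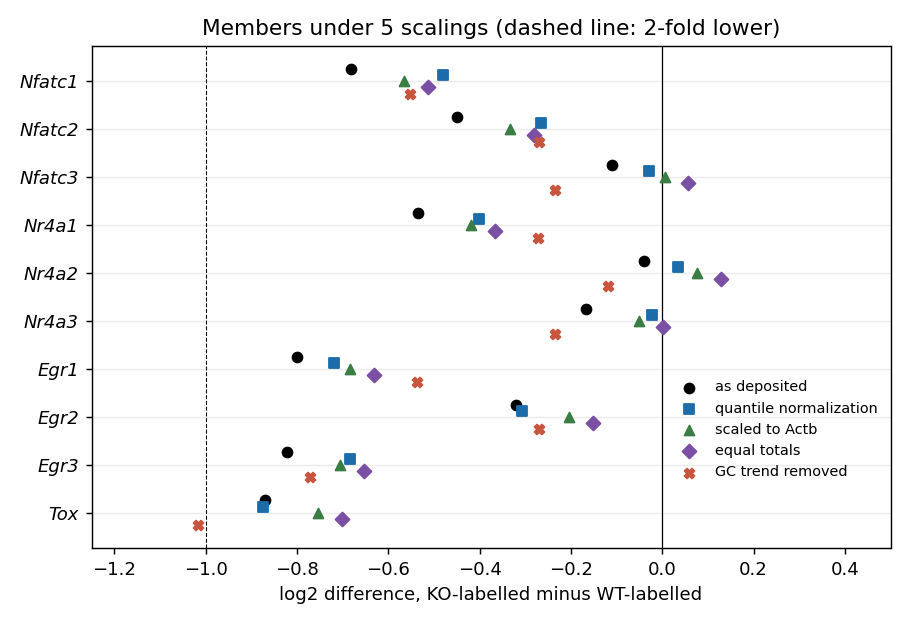
The log2 difference of each member (horizontal axis) as deposited and under 4 other scalings, given by symbol shape and color, n = 1 per genotype. The symbols of Nfatc1, Nfatc2, Nr4a1, Egr1, Egr2, Egr3 and Tox all lie left of 0, whereas Nfatc3, Nr4a2 and Nr4a3 have at least 1 symbol at or right of 0.

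The machinery upstream of NFAT was near the level of all genes. Of 17 genes of calcium entry and calcineurin, 10 were lower and 7 higher, none was past 2-fold, and the median was -0.07 (0.10 at equal totals). The largest differences were those of Orai1, the pore of the calcium release-activated channel, with -0.60, Stim1, the endoplasmic calcium sensor that opens it, with -0.46, and Calm3, a calmodulin gene, with -0.38. With the GC trend removed these were -0.26, -0.33 and -0.04. The catalytic calcineurin genes Ppp3ca, Ppp3cb and Ppp3cc, named after their values were seen, had -0.07, -0.05 and 0.25, of which the first 2 turned to 0.10 and 0.12 at equal totals. Of 11 NFAT inhibitors and export kinases, 7 were lower and 4 higher, with a median of -0.04 (0.13 at equal totals). Homer3, a scaffold that competes with calcineurin for NFAT, had -0.32, the kinase gene Dyrk1a had 0.18 and Cabin1, a calcineurin-binding inhibitor, had -0.12. Cabin1 turned to 0.05 at equal totals, and with the GC trend removed Homer3 and Cabin1 were at 0.13 and 0.14. Homer2 was the only one past 2-fold, with 8 reads in the WT-labelled library and 0 in the KO-labelled library. Its counting interval lay below -0.77, which does not reach 2-fold. Of genes with a mean log2 value from 1 to 4, where Homer2 lies, 59.8% were past 2-fold. Rcan1, an inhibitor whose own transcription is driven by NFAT, had 9.01 and 9.02 and was named after its values were seen.

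Other immediate early genes were divided. Of 22 genes, 15 were lower and 7 higher, with a median of -0.34 (-0.18 at equal totals and -0.15 with the GC trend removed). None was past 2-fold, 6 were lower by at least 1.5-fold and 2 were higher. All 22 have a mean log2 value above 8, where 6.68% of 9093 genes were lower by 1.5-fold and 4.5% were higher. At equal totals 2 of the 22, Ier2 and Fosb, were lower by 1.5-fold. With the GC trend removed 1 was, Ier5 (named after its values were seen), and Gadd45b reached 1.01, past 2-fold. As deposited, Ier2 had the largest difference, -0.88, followed by Fosb, an AP-1 subunit, with -0.75 and Gadd45b, a stress-response gene, with 0.75. The other AP-1 subunits of the list, named after their values were seen, did not move together. Fos, Jun and Fosl1 differed little as deposited, with 0.10, 0.08 and 0.03, and Fosl2 had -0.24. With the GC trend removed Fos, Jun, Fosl1 and Fosl2 were at 0.19, 0.26, 0.38 and -0.14. Junb and Jund both had -0.70, or -0.25 with the GC trend removed. Fos and Egr1 are both classical targets of serum response factor, and Egr1 was at -0.80. Srf, the gene of that factor and named after its values were seen, had -0.55 (-0.10 with the GC trend removed). The part of serum response factor in these differences was not tested.

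Gene products that follow NFAT activity did not share one direction with the factors. Among 11 NFAT-dependent cytokines and ligands, 9 were higher and 2 lower in the KO-labelled library, with a median of 0.31 (0.47 at equal totals and 0.16 with the GC trend removed). The 4 past 2-fold were all higher, and 3 of them lie at low levels. Of all genes, 10.9% were past 2-fold at a mean log2 value from 6 to 8 (Il3), 24.7% from 4 to 6 (Xcl1), 59.8% from 1 to 4 (Il4) and 0.46% from 12 to 14 (Ifng). Ifng, the Th1 cytokine, had 1.32, and Il3, a hematopoietic growth factor, had 1.25 from 67 and 161 reads. Xcl1, a chemokine, had 1.58 from 12 and 38 reads. Il4, the Th2 cytokine, had 1 and 9 reads, a difference of 2.33 with a counting interval from 0.32 to 8.62. The next largest of the well expressed genes were Cd40lg, which encodes the CD40 ligand, with 0.31 and Ccl4, a chemokine, with -0.29. Fasl, which encodes the Fas ligand, followed with 0.27. Il2, the best known NFAT target and named after its values were seen, had 8.91 and 8.98.

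Surface markers and programs tied to these factors differed modestly. Of 8 surface activation markers, 5 were higher and 3 lower, none past 1.5-fold, with a median of 0.12 (0.29 at equal totals and -0.09 with the GC trend removed). Cd5, whose level tracks receptor signal strength in T cells, had -0.52 (14.93 and 14.41), Tnfrsf9 (4-1BB) had 0.43 (0.60 at equal totals, past 1.5-fold) and Tnfrsf4 (OX40) had -0.42. Of 11 anergy genes linked to EGR2 and EGR3, 10 were lower and 1 was higher as deposited (8 and 3 at equal totals, 9 and 2 with the GC trend removed). The median was -0.29 (-0.13 at equal totals and -0.24 with the GC trend removed), and none was past 2-fold. As deposited 2 were lower by 1.5-fold, and none was at equal totals or with the GC trend removed. Cblb, Dgka, Dgkz, Ndrg1, Lag3 and Izumo1r lie at mean log2 values from 14 to 18, where 73.0% of genes were lower and 8.38% lower by 1.5-fold. Izumo1r, folate receptor 4 of activated and anergic CD4 T cells, had -0.68, Dgkz, a diacylglycerol kinase gene, had -0.46 (-0.0070 with the GC trend removed) and Itch, an E3 ligase gene and the one that was higher, had 0.40. Of 8 exhaustion genes linked to NFAT, NR4A and TOX, 5 were lower and 3 higher, with a median of -0.01 (0.16 at equal totals). There Cd160 had -0.30, Pdcd1, which encodes PD-1, had 0.20 and Tigit had -0.17 (0.0017 at equal totals). Entpd1, which encodes CD39 and was named after its values were seen, was the one past 1.5-fold, with 0.69 from 79 and 128 reads (counting interval from 0.28 to 1.12).

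Quiescence genes, which receptor stimulation lowers, were not higher in the KO-labelled library. Of 11 such genes, 9 were lower and 2 higher, with a median of -0.17 (-0.00172 at equal totals and -0.27 with the GC trend removed) and none past 2-fold. At equal totals 6 were lower and 5 higher, and with the GC trend removed all 11 were lower. Klf2, a quiescence factor that is lost on stimulation, had -0.88, Tcf7 had -0.61 and Lef1 had -0.44. Of 11 genes of the T cell receptor complex and proximal kinases, 9 were lower and 2 higher, with a median of -0.08 (0.09 at equal totals). Cd4 had -0.37, the adaptor gene Lcp2 had -0.35 and the adaptor gene Lat had -0.30 (-0.04 with the GC trend removed). The kinase genes Lck and Zap70, named after their values were seen, were nearly equal in both libraries as deposited. Lck had 16.49 and 16.48, and Zap70 had 16.30 and 16.30. At equal totals both were at 0.17, and with the GC trend removed Lck was at 0.13 and Zap70 at 0.45. The lists were chosen for this comparison and some share genes, such as Lag3.

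**Figure D5:**
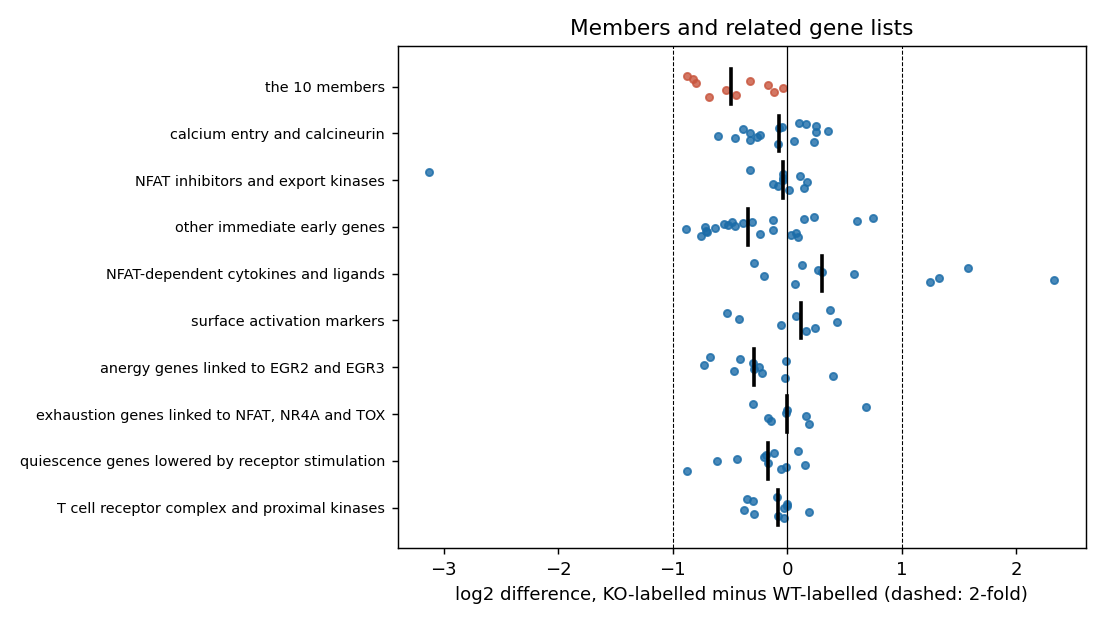
The log2 difference, KO-labelled minus WT-labelled (horizontal axis), of the 10 members and of each gene in 9 related lists, with a black bar at each median and dashed lines at 2-fold, n = 1 per genotype. The members have the lowest median, -0.49, and the NFAT-dependent cytokines and ligands the highest, 0.31, while the medians of the calcium, NFAT inhibitor, exhaustion and receptor complex lists are within 0.08 of 0 as deposited and turn positive at equal totals. With the GC trend removed (not drawn), the members' median is -0.271, close to -0.265 for the quiescence list and -0.236 for the anergy list.

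Markers of other cells were low next to those of T cells. The 5 T cell markers Cd3d, Cd3e, Cd3g, Cd4 and Cd28 had log2 values from 11.9 to 14.9 in both libraries. Of the 4 Th1 markers, which summed to 35115 and 42856 normalized reads, Tbx21 had a difference of -0.27 (0.08 with the GC trend removed), Cxcr3 -1.23 from 273 and 116 reads, Il12rb2 0.45 and Ifng 1.32. The 2 CD8 T cell markers summed to 812 and 807 but went opposite ways, with Cd8a at 0.60 and Cd8b1 at -0.47. Since Egr1 and Nr4a1 are also early genes of B cells and myeloid cells, those marker lists are given beside them. The 5 B cell markers were all higher in the KO-labelled library, with summed normalized reads of 939 and 1731. The 5 macrophage markers summed to 675 and 550.0, with Adgre1 at 0 in both, Csf1r higher and Lyz2, Cd68 and Itgam lower. The 6 neutrophil markers summed to 80.3 and 4.79, with 1 and 5 of them at 0. Dendritic cell markers summed to 73.6 and 117, and NK cell markers to 16.4 and 14.4. Within these lists Flt3, Zbtb46 and Ncr1 were higher, and Itgax and Klrb1c were lower. The part of these cells in the members' differences was not tested. The 45S ribosomal RNA precursor took 2.83% of normalized reads in the WT-labelled library and 1.0% in the KO-labelled library.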

How the data were processed

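Polyadenylated RNA of 2 Th1 cultures, 1 per genotype, was made into SENSE mRNA-Seq libraries and sequenced in pairs on a HiSeq instrument. The authors mapped reads with TopHat, counted unique and multiple alignments, used edgeR and cufflinks, and applied a global normalization. Their processing notes name mm10. The deposited log2 values, 1 per gene, were read as normalized counts plus 1 on a log2 scale, since low values fell on whole multiples of one step (0.970 in the WT-labelled and 0.969 in the KO-labelled library, 100% within 0.1 read over 1 to 30 reads). The study's methods also name FPKM, but the step was the same for genes of all lengths. Reads were rebuilt from these steps, and large counts are approximate.

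With 1 sample per genotype no test was run. Differences were subtracted log2 values. Genes that reached a log2 value of 1 in either library were kept. Length and GC content came from the longest GENCODE M21 transcript (found for 99.0% of kept genes), and promoters from RefSeq. All members, their closest relatives, list genes past 2-fold and, beyond those, up to 3 per list with the largest differences among those that reached a log2 value of 8 were named. Members and lists were chosen with earlier results of these data known. The alternatives were other pseudocounts, scalings, filters and folds, removal of the GC trend and, chosen after seeing the data, equal totals. Scripts were tested on simulated data. Python 3.11.15 was used with pandas 2.3.3, numpy 2.4.6 and scipy 1.17.1, and figures were drawn in matplotlib 3.10.9.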

Additional observations from a re-analysis of the deposited data

How the results depend on the processing

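Of the 10 members, 7 (Nfatc1, Nfatc2, Nr4a1, Egr1, Egr2, Egr3 and Tox) were lower in the KO-labelled library under all 7 alternatives of pseudocount, scaling and GC content. Their median of -0.492 moved to -0.354 after quantile normalization, -0.376 when scaled to Actb, -0.324 at equal totals and -0.271 with the GC trend removed. With that trend removed, 1 member was past 2-fold and 2 were lower by at least 1.5-fold, and 3 were under quantile normalization, Actb scaling and equal totals. At a 1.5-fold threshold, 4 members were past it. The share of all genes past the fold, 16.5%, was 29.6% at 1.5-fold, 8.40% at 3-fold, 10.5% with no filter on low values and 1.20% among genes that reached 8 in each library.

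Signs turned for small values. Median-ratio scaling, Actb scaling and equal totals each add a constant for well expressed genes, so differences just below 0 turn positive. What lies behind the other turned signs was not tested. Equal totals was an alternative chosen after seeing the data. Nr4a2 was at 0.0343 after quantile normalization, 0.0760 when scaled to Actb and 0.128 at equal totals. Nfatc3 was at 0.00498 when scaled to Actb and 0.0572 at equal totals, and Nr4a3 was at 0.00127 at equal totals. List medians turned to 0.0429 when scaled to Actb and 0.0951 at equal totals for calcium entry, 0.0770, 0.129 and, with the GC trend removed, 0.0270 for NFAT inhibitors, and 0.0380 and 0.0903 for the receptor complex, which was at 0.0195 after quantile normalization. The exhaustion list was at 0.00565 after median-ratio scaling, 0.142 after quantile normalization, 0.107 when scaled to Actb and 0.158 at equal totals. Surface markers were at -0.0935 with the GC trend removed.

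Scaling to Actb adds 0.116 and equal totals 0.168 to the log2 difference of well expressed genes. With 1 library per genotype, depth leaves little counting error for the members, while variation between cultures is unknown. No paired analysis was possible because each genotype has 1 library.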
